A study of Mus musculus with 8 samples.

Results

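Fibroblast growth factor signalling in embryonic skin was examined through 9 genes, 4 Fgf ligands (Fgf9, Fgf18, Fgf20 and Fgf22), the Fgf carrier protein gene Fgfbp1 and the 4 receptor tyrosine kinase genes Fgfr1 to Fgfr4. They were chosen by gene symbol as Fgf ligands of skin epithelium and their receptors, and all 9 were among the 26165 genes measured, each in 1 row. RNA came from dispase-separated back skin epithelium of E15.5 embryos on a C57/Bl6 background, 4 Foxi3-/- embryos that lack the forkhead transcription factor Foxi3 in all tissues and 4 Foxi3+/+ littermates, with 1 embryo per array on a mouse exon array. Null embryos were recognised by their missing jaw and by genotyping, and wild-type embryos by genotyping. The embryos came from 4 litters, and no source used here ties an embryo to a litter. The question addressed is which transcripts of the epithelium differ when Foxi3 is absent.

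Fgf ligands bind Fgf receptors together with heparan sulphate, and the activated receptor signals through Frs2, Ras and Erk kinases to targets that include Etv factors and the feedback inhibitors of the Sprouty and Dusp families. In developing mouse skin the signal runs in both directions. Fgf7 and Fgf10 from dermis act on Fgfr2 in the epithelium, while Fgf20, made in the hair placode, acts on the underlying dermis, where Fgfr1 is abundant and the dermal condensate forms.

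Values are log2 intensities that the authors obtained with RMA, so that a difference of 1 is a change by a factor of 2. Array medians lay between 5.15 and 5.29. Of the epithelial marker genes 12 of 12 lay above the median of all genes, with list means of 10.24 to 10.28 in Foxi3 null and 10.25 to 10.33 in wild-type samples. So did 12 of 16 dermal fibroblast and 7 of 8 melanoblast genes, so that this count does not set epithelium apart from other cell types. Hair placode and germ markers had list means of 7.36 to 7.44 in null and 7.39 to 7.51 in wild-type samples. These are means over genes that went both ways, 7 of 15 higher and 8 lower in null, with differences from −0.98 to 0.92. Foxi3 itself was 8.62, 8.43, 8.45 and 8.19 in null samples 1 to 4, against 8.96, 9.07, 9.20 and 8.55 in wild-type samples 1 to 4 (difference −0.52, SE 0.15, limma adjusted p = 1.00). The sources used here do not say whether its probes lie in the deleted part. By other markers 3 arrays stood apart. Foxi3 null 2 had a mean of 8.06 over 16 dermal fibroblast genes, against 6.43 to 6.76 in the other null and 6.40 to 6.74 in the wild-type samples. Wild type 4 had a mean of 9.27 over 12 immediate-early and stress genes that respond to tissue handling, and Foxi3 null 4 had 8.27, against 6.90 to 7.31 in the other samples.

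None of the 9 genes passed the comparison of Foxi3 null with wild-type epithelium over all genes (limma, adjusted p under 0.05). In the same test 3 of 26165 genes passed, or 0.0115%, namely Pgf, Prss35 and Pthlh. At an unadjusted limma p under 0.05, 1 of the 9 genes (Fgfr3) was counted, against 3.72% of all genes. For 0 of the 9 genes were the groups without overlap, against 1.95% of all genes. Of the 9 differences 3 were above and 6 below 0, with a median of −0.09, beside a median of −0.01 over all genes. The intervals show how far the data reach. For all of the 9 genes but Fgfr1, the 95% interval of the difference reached no farther from 0 than the −0.55 of Fgfr3.

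**Figure D1:**
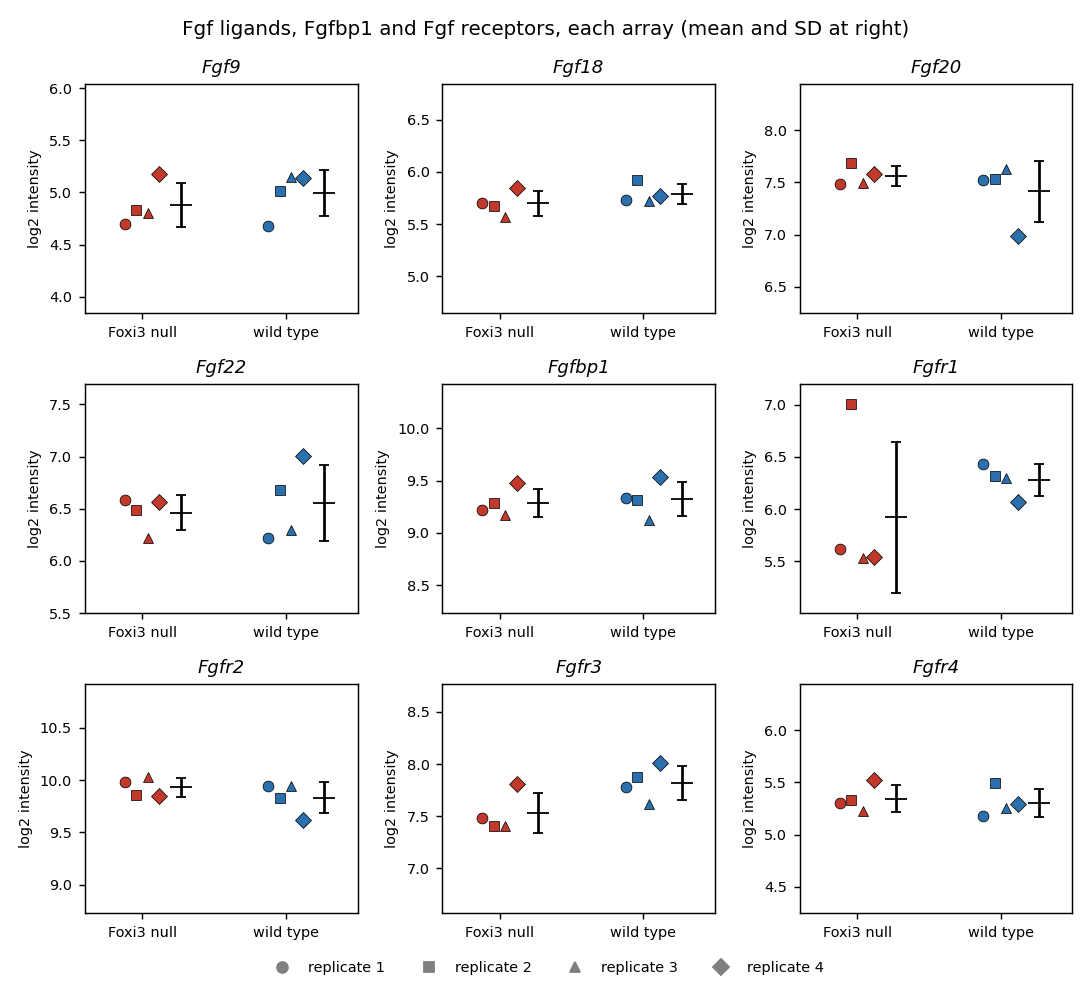
Log2 intensity of each of the 9 genes (panels) in the 4 Foxi3 null arrays (red, left) and the 4 wild-type arrays (blue, right); symbols give the replicate number, and the bar beside each group is the mean with its SD. Each panel spans the same height. In Fgfr1 the null arrays 1, 3 and 4 lie at 5.53 to 5.62 and null array 2 at 7.00, and in Fgf20 wild type 4 lies at 6.98.

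Among the ligands, Fgf20 is the placode signal to the dermis. Its log2 intensity was 7.48, 7.69, 7.50 and 7.58 in Foxi3 null samples 1 to 4, against 7.52, 7.53, 7.63 and 6.98 in wild-type samples 1 to 4. The groups overlapped, and wild type 4, the array with the highest handling genes, was the lowest of all 8. The difference was 0.15 (SE 0.14, 95% interval −0.16 to 0.45, limma adjusted p = 1.00, exact two-sided permutation p = 0.486). Its direction rested on wild type 4, since without that array it was 0.00078. Without both arrays numbered 4 it was −0.0050. Whether the cause of the high handling genes in wild type 4, which is not known here, bears on its Fgf20 level was not tested.

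Fgf9, a ligand of the same subfamily as Fgf20, measured 4.70, 4.84, 4.80 and 5.18 in null samples 1 to 4, against 4.68, 5.01, 5.15 and 5.14 in wild-type samples 1 to 4. The values of null and wild-type arrays were interleaved. The difference was −0.12 (SE 0.13, 95% interval −0.42 to 0.19, exact two-sided permutation p = 0.486). With each array left out in turn it ranged from −0.22 (without wild type 1) to −0.05 (without null 1). Fgf9 was the 1 member whose mean (4.94) lay below the median of all genes (5.22), and with no detection calls a low value cannot be told from background.

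Fgf18, which is known in mouse hair follicles for its part in the hair cycle, measured 5.71, 5.67, 5.56 and 5.85 in null samples 1 to 4, against 5.73, 5.93, 5.72 and 5.77 in wild-type samples 1 to 4. Null samples 1, 2 and 3 lay below all wild-type samples, and null 4 above 3 of them. The difference was −0.09 (SE 0.08, 95% interval −0.27 to 0.10, exact two-sided permutation p = 0.314). With each array left out in turn it ranged from −0.14 (without null 4) to −0.04 (without wild type 2).

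Fgf22, a ligand of the Fgf7 subfamily, measured 6.58, 6.49, 6.22 and 6.56 in null samples 1 to 4, against 6.22, 6.68, 6.30 and 7.01 in wild-type samples 1 to 4. The groups overlapped, and wild type 4 was the highest. The difference was −0.09 (SE 0.17, exact two-sided permutation p = 0.686). Without wild type 4 it was 0.06, so that its sign also depended on that array.

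Fgfbp1 encodes a secreted protein that binds Fgfs and frees them from the extracellular matrix. It measured 9.22, 9.29, 9.17 and 9.48 in null samples 1 to 4, against 9.33, 9.31, 9.13 and 9.53 in wild-type samples 1 to 4. The groups nearly coincided, with sample 4 the highest of each. The difference was −0.04 (SE 0.10), with a 95% interval of −0.27 to 0.19, and exact two-sided permutation p = 0.686.

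Among the receptors, Fgfr1 varied most, with an SD of 0.52 over the 8 arrays. It measured 5.62, 7.00, 5.53 and 5.54 in null samples 1 to 4, against 6.43, 6.32, 6.30 and 6.07 in wild-type samples 1 to 4. Null samples 1, 3 and 4 lay below every wild-type sample, while null 2 lay above every wild-type sample. Null samples averaged 5.92 ± 0.72 and wild-type samples 6.28 ± 0.15 (SD, n = 4 each). With all arrays the difference was −0.36 (SE 0.31, 95% interval −1.05 to 0.34, limma adjusted p = 1.00, exact two-sided permutation p = 0.429).

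Leaving out Foxi3 null 2 gave a difference in Fgfr1 of −0.72 (SE 0.10, 95% interval −0.94 to −0.50), or 0.608 times the wild-type level. The null mean was then 5.56 ± 0.05 (SD, n = 3). With no detection calls, null values this near the median of all genes (5.22) may lie near background. With a limma adjusted p of 0.174 Fgfr1 still missed the threshold, although it ranked 10 by p among all 26165 genes. The groups no longer overlapped, which held for 3.55% of all genes in that comparison. An exact permutation test, two-sided, gave p = 0.0286, the smallest that 3 against 4 samples can give. The array left out was the null array that lay above every wild-type sample. The lack of overlap and this p were therefore fixed by leaving it out and are not separate support. The difference of −0.72, its SE and interval, the null SD and the rank also depend on that choice. Of all 9 genes Fgfr1 alone had groups without overlap when that array was left out.

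The array left out was the one with high dermal markers. In null 2, 13 of 16 dermal fibroblast genes had their highest value of all arrays, among them Lum, Pdgfra and Col1a1. Lum, a proteoglycan of dermal matrix, was 8.81 in null 2 against 3.31 to 4.56 in the other null and 3.50 to 5.02 in the wild-type samples. Dermal condensate genes had a list mean of 5.98 in null 2, against 5.28 to 5.47 in the other null and 5.32 to 5.52 in the wild-type samples. Without null 2 the difference of the dermal fibroblast mean was 0.0099, a mean over genes that went both ways, 6 of 16 higher and 10 lower in null. Their differences then ranged from −0.29 (Dpt) to 0.52 (Fn1). The condensate mean differed by 9.03e-05, with 4 of 9 genes higher and 5 lower in null. Skeletal muscle genes, markers of another tissue under the skin, had list means of 4.91 to 5.12 in null and 5.01 to 5.41 in wild-type samples, and all 10 were lower on average in null. The part of dermal and muscle RNA in the Fgfr1 values was not tested. In such bulk samples fewer cells of a type and less RNA per cell cannot be told apart.

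**Figure D2:**
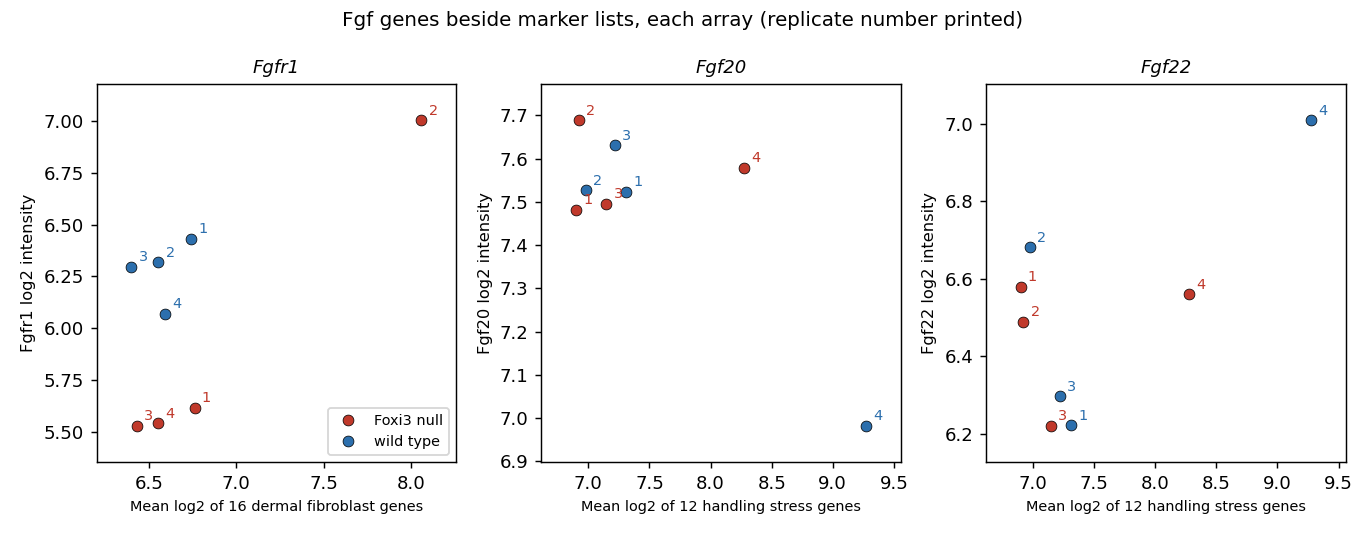
Fgfr1 against the mean of 16 dermal fibroblast genes (left), and Fgf20 (middle) and Fgf22 (right) against the mean of 12 handling stress genes, all in log2 intensity; red points are Foxi3 null and blue points wild-type arrays, with the replicate number beside each. Null 2 is alone at a dermal mean of 8.06, and the other 3 null arrays lie at Fgfr1 values of 5.53 to 5.62 and dermal means of 6.43 to 6.76, beside dermal means of 6.40 to 6.74 in the wild-type arrays; wild type 4 is alone at a handling mean of 9.27.

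Fgfr2 is the epithelial receptor for dermal Fgf7 and Fgf10, and its gene-level value here does not tell its epithelial from its mesenchymal splice form. It measured 9.99, 9.86, 10.03 and 9.85 in null samples 1 to 4, against 9.94, 9.83, 9.94 and 9.62 in wild-type samples 1 to 4. The values overlapped, with wild type 4 the lowest. The difference was 0.10 (SE 0.09, 95% interval −0.11 to 0.30, limma adjusted p = 1.00, exact two-sided permutation p = 0.343). A change in either direction by a factor above 1.23 lies outside that interval. Without wild type 4 the difference was 0.03.

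Fgfr3, a receptor of keratinocytes that is also known for restraining bone growth, had the lowest p of the 9 genes. It measured 7.48, 7.41, 7.41 and 7.81 in null samples 1 to 4, against 7.78, 7.87, 7.61 and 8.01 in wild-type samples 1 to 4. Null samples 1, 2 and 3 lay below every wild-type sample, while null 4 lay above wild type 1 and 3. Null samples averaged 7.53 ± 0.19 and wild-type samples 7.82 ± 0.16 (SD, n = 4 each). The difference was −0.29 (SE 0.12, 95% interval −0.55 to −0.03), or 0.818 times the wild-type level. Its unadjusted limma p was 0.0331 and its adjusted p 1.00, while a two-sided exact permutation test gave p = 0.0857. It therefore did not pass, and with each array left out in turn the difference stayed between −0.38 and −0.23.

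Fgfr4, the receptor through which intestinal Fgf15 acts on the mouse liver, measured 5.30, 5.33, 5.22 and 5.52 in null samples 1 to 4, against 5.18, 5.50, 5.26 and 5.29 in wild-type samples 1 to 4. The groups overlapped throughout. The difference was 0.04 (SE 0.09, 95% interval −0.17 to 0.25, exact two-sided permutation p = 0.600), and its sign changed when null 4 (−0.02) or wild type 1 (−0.0044) was left out.

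**Figure D3:**
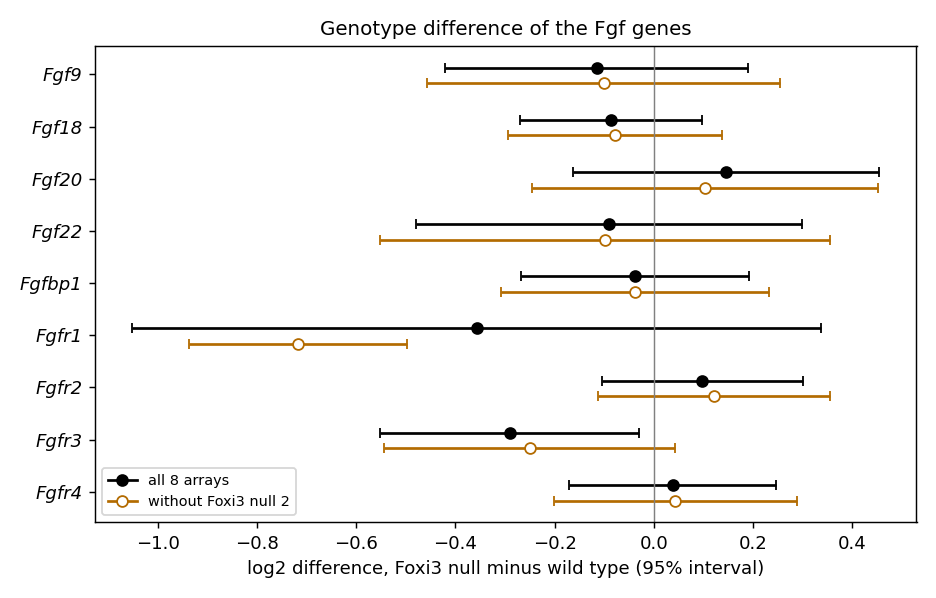
Log2 difference of Foxi3 null minus wild type for each of the 9 genes with its 95% interval from limma, over all 8 arrays (filled, 4 against 4) and without Foxi3 null 2 (open, 3 against 4). Fgfr1 lies at −0.36 with all arrays and at −0.72 without null 2; Fgfr3 lies at −0.29 with all arrays and at −0.25 without null 2.

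Promoter windows are shown for Fgfr3, the member of lowest p, and for Fgfr2, the epithelial receptor of the dermal ligands. The RefSeq table of assembly GRCm38.p6 held windows of 300 bases, from 250 before to 50 after a transcript start, for 7 of the 9 genes, all but Fgfr1 and Fgf20. The letters TAAACA, a core of forkhead binding sites, were searched on both strands. They were in 0 of the 8 windows of these 7 genes, and in 13.4% of all 32851 windows. This describes those windows alone, and no binding was measured. The window of Fgfr3 at chr5:33721474-33721773 on the + strand and that of Fgfr2 at chr7:130266759-130267058 on the − strand are given 5′ to 3′, with each CpG dinucleotide in capitals.
Fgfr3: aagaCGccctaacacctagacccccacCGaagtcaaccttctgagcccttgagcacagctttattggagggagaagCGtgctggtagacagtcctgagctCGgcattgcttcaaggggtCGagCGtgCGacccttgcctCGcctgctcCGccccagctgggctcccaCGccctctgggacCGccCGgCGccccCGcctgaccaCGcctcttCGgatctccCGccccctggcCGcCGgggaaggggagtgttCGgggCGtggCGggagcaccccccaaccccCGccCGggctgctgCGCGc
Fgfr2: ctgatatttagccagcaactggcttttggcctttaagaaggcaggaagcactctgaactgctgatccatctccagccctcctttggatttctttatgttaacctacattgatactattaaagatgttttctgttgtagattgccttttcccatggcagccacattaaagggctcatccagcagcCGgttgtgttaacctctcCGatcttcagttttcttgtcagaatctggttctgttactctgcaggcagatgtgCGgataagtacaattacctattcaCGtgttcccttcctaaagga
The Fgfr3 window held 26 CpG dinucleotides and 69.7% G or C, and the Fgfr2 window 4 and 43.7%, beside a median of 7 CpG dinucleotides over all windows.

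Correlations between pairs of the 9 genes were computed over the 8 arrays. Of 36 pairs, 6 had an unadjusted exact permutation p under 0.05 for Pearson's r and 0 passed after adjustment over the 36 pairs. Fgfr2 was in 3 of the 6. The pair of lowest p was Fgfbp1 and Fgfr2, with r = −0.83 (exact permutation p = 0.0067, adjusted p = 0.141) and Spearman's rho = −0.81 (exact permutation p = 0.0218, adjusted p = 0.330). Within groups its r was −0.85 (exact permutation p = 0.0156, adjusted p = 0.156), and without the 2 arrays farthest from the median of Fgfbp1, both numbered 4, it was −0.62. The largest r in size was that of Fgf22 and Fgfr2, at −0.87 (exact permutation p = 0.0078, adjusted p = 0.141), with rho = −0.74 (exact permutation p = 0.0458, adjusted p = 0.330). Within groups it was −0.89 (exact permutation p = 0.0174, adjusted p = 0.156), and without null 3 and wild type 4, the arrays farthest from the median of Fgf22, it was −0.50. Fgfr2 and Fgfr3 had r = −0.76 (exact permutation p = 0.0183, adjusted p = 0.188) and rho = −0.76 (exact permutation p = 0.0368, adjusted p = 0.330). Within groups that r was −0.72 (exact permutation p = 0.0538, adjusted p = 0.354), and without the same 2 arrays, which were also farthest from the median of Fgfr2, it was −0.41. In the other 3 pairs r was above 0. Fgf18 and Fgfr4 had r = 0.78 (exact permutation p = 0.0208, adjusted p = 0.188) but rho = 0.48 (exact permutation p = 0.243, adjusted p = 0.515). Within groups that r was 0.95 (exact permutation p = 0.0087, adjusted p = 0.156), and without null 3 and wild type 2 it was 0.69. Fgf18 and Fgfr3 had r = 0.75 (exact permutation p = 0.0270, adjusted p = 0.195) and rho = 0.90 (exact permutation p = 0.0046, adjusted p = 0.164). Within groups that r was 0.70 (exact permutation p = 0.111, adjusted p = 0.444), and it was 0.69 without the same arrays as for Fgfr4. Fgfbp1 and Fgfr3 had r = 0.76 (exact permutation p = 0.0325, adjusted p = 0.195) and rho = 0.71 (exact permutation p = 0.0576, adjusted p = 0.346). Within groups that r was 0.92 (exact permutation p = 0.0139, adjusted p = 0.156), and without both arrays numbered 4 it was 0.50. Each of the 6 values of r lay nearer to 0 when the 2 arrays were left out, and wild type 4 was among those left out for 4 of the 6 pairs. The pairs were picked by p and the arrays by distance from the median. A move of r towards 0 was therefore likely beforehand.

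The genes whose pattern over the 8 arrays came closest to a member were taken for Fgfr1 and Fgf22, the members of largest SD. The measure was the root mean square difference of log2 values after centring each gene, among 11002 named genes above the median intensity. Closest to Fgfr1 were Robo2, a receptor for Slit guidance proteins, at 0.211, Lrrn1 at 0.269 and the microfibril protein gene Mfap2 at 0.277, against 0.486 for a flat line. Robo2 measured 5.24, 6.25, 4.94 and 4.92 in null samples 1 to 4, against 5.45, 5.39, 5.28 and 5.45 in wild-type samples 1 to 4, so that it too was highest in null 2 and lowest in the other null arrays. Closest to Fgf22 were Xk at 0.080, the retinoic acid degrading enzyme gene Cyp26b1 at 0.108 and the cell cycle inhibitor gene Cdkn2b at 0.114, against 0.249 for a flat line. Each of these 3 genes was highest in wild type 4, at 6.30, 5.95 and 7.46.

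Of the other genes of the pathway, 71 of 72 listed were measured, and 0 of 71 passed over all genes in either direction, nor did any reach an unadjusted limma p under 0.05. Of these 32 lay above and 39 below 0, with a median of −0.01, beside −0.01 over all genes. Among 18 other Fgf ligands 5 were above and 13 below 0, with a median of −0.04. Named here are up to 3 of lowest p in each class. Fgf3 was at −0.15 (SE 0.08), Fgf1 at −0.19 (SE 0.11) and Fgf11, an Fgf that is not secreted, at 0.17 (SE 0.10). Of the 18 genes, 3 had a mean above the median of all genes, Fgf11 among them. The dermal ligand genes Fgf7 (3.16 to 3.78 over all arrays) and Fgf10 (3.30 to 3.93) were not.

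Among 17 co-receptor and heparan sulphate genes 8 were above and 9 below 0, with a median of −0.01. Sulf1, an enzyme that removes sulphate from heparan sulphate, was the 1 gene of the pathway beyond 0.5 on the log2 scale. It measured 5.16, 6.28, 5.27 and 4.53 in null samples 1 to 4, against 4.76, 4.64, 5.21 and 4.38 in wild-type samples 1 to 4 (difference 0.56, SE 0.33, limma adjusted p = 1.00). As with Fgfr1, null 2 was its highest array, and without it the difference was 0.24 (SE 0.23). Leaving out the highest null array could only lower the Sulf1 difference. The glypican gene Gpc3 was at 0.15 (SE 0.09) and Klb, a co-receptor for endocrine Fgfs, at −0.13 (SE 0.09).

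Among 22 genes of signal transduction 8 were above and 14 below 0, with a median of −0.02. The kinase gene Rps6ka3 was at 0.09 (SE 0.07). Among 14 targets and feedback genes of Fgf and Erk signalling 11 were above and 3 below 0, with a median of 0.03. Dusp6, an Erk phosphatase gene induced by Fgf, measured 9.42, 9.75, 9.83 and 9.75 in null samples 1 to 4, against 9.55, 9.41, 9.75 and 9.35 in wild-type samples 1 to 4 (difference 0.17, SE 0.12, limma adjusted p = 1.00). Null and wild-type values overlapped. The feedback inhibitor gene Spry1 was at −0.15 (SE 0.10) and the cyclin gene Ccnd1 at 0.12 (SE 0.10). In null 2, 7 of these 14 genes had their highest value of all arrays, and without it the difference of the list mean was −0.0024, against 0.03 with all arrays. As null 2 had the highest list mean of the null arrays, leaving it out could only lower that difference. The share of all genes that were highest in null 2 was not counted.

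**Figure D4:**
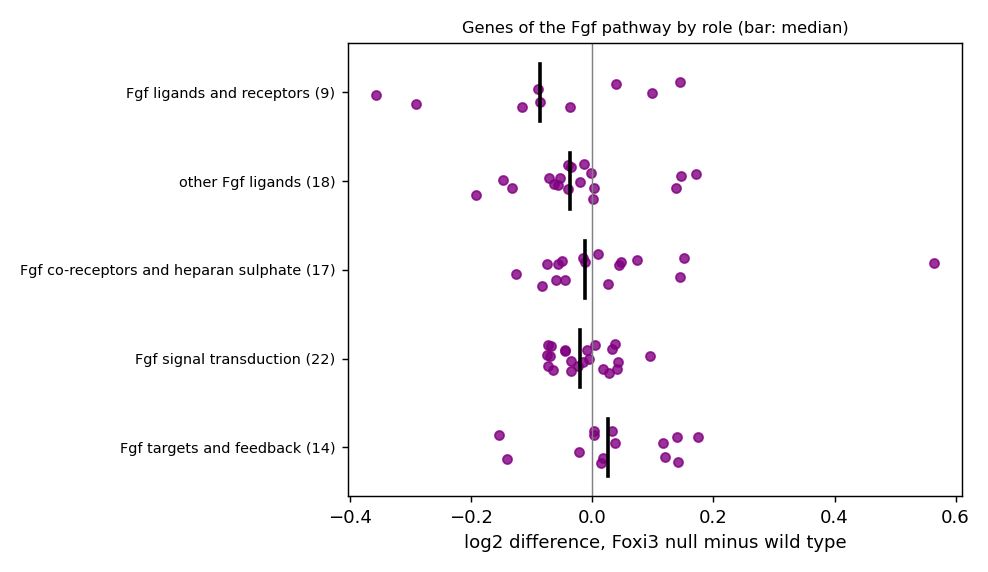
Log2 difference of Foxi3 null minus wild type for each gene of the Fgf pathway, by role, with the number of genes in brackets and the median as a bar; the height of a point within its row has no meaning. Fgfr1 (−0.36) and Fgfr3 (−0.29) are the lowest points and Sulf1 (0.56) the highest, and 0 of the points passed over all genes.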

How the data were processed

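Arrays were made from 4 Foxi3 null and 4 wild-type samples, grouped by sample title. Values are the log2 intensities the authors deposited, made with RMA (background correction, normalisation between arrays, probe summary) per the submitters' processing notes. The sources used here give no version, probe annotation or genome build. Symbols came from the authors' second table, whose 8 array columns match no sample by name and were not used; its deposited group means matched those computed here to within 7.5e-09. RMA compresses differences of dim genes, and the number of arrays limits the precision.

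Groups were compared with limma 3.58.1 in R 4.3.3 (lmFit and eBayes, two-sided, no covariate, Benjamini-Hochberg over 26165 genes), and single values with an exact permutation test over 70 arrangements (smallest two-sided p 0.0286). The fit was tested on simulated data. Members and lists were chosen with earlier results of these data known. Named were the members, Foxi3, passing genes, the 3 genes of lowest p per pathway class and the 3 nearest in pattern to the 2 most variable members; Fgf7, Fgf10, Lum, Pdgfra, Col1a1, Dpt and Fn1 were added after their values were seen. Of the genes this rule names, 2 are not reported here. The marker lists covered epithelium, placode, fibroblast, condensate, endothelium, muscle, melanoblast, leukocyte and handling genes. List means of the lists not described in the results were 4.05 to 4.41 in null and 4.11 to 4.31 in wild-type samples for endothelium, 6.37 to 6.67 and 6.39 to 6.69 for melanoblasts, and 4.16 to 4.43 and 4.21 to 4.49 for leukocytes.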

Additional observations from a re-analysis of the deposited data

Results flagged for a closer look

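A sample stood far from the other 3 of its group, by Dixon's criterion on the share of the group's range that its gap to the nearest sample takes, in 5 of 72 values tested, against about 4 by chance. Fgfr1 in Foxi3 null 2 was 7.00, and the other null samples lay at 5.53 to 5.62, a gap share of 0.941. Fgf20 in wild type 4 was 6.98, against 7.52 to 7.63 in the other wild-type samples, a gap share of 0.834. The handling gene mean in wild type 4 was 9.27, against 6.98 to 7.31, a share of 0.855. The dermal condensate mean in wild type 2 was 5.52, against 5.32 to 5.34, a share of 0.868. Gpc3 in Foxi3 null 3 was 10.27, against 10.09 to 10.10, a share of 0.965.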

How the results depend on the processing

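The alternatives were median centring, quantile normalisation, 1 row per symbol, genes above the median intensity, array weights, trend with robust moderation, embryo sex as a covariate (from Ddx3y), the replicate block, an adjusted p under 0.1 and each array left out in turn. Left out together, both arrays numbered 4, with and without Foxi3 null 2 as well, were chosen after seeing the data. Under every one of these, 0 of the Fgf genes and 0 of the other pathway genes tested passed, which were 9 and 71 except among genes above the median intensity, where they were 8 (without Fgf9) and 51. The count over all genes was 3 or 4, but 0 with the replicate block and 0 in both settings that left out the arrays numbered 4, and between 0 and 4 with each array left out, being 0 without wild type 1, 2 or 4. With the replicate block Fgfr3 had an unadjusted p of 0.0066 (limma adjusted p = 0.310), and over its alternatives that p lay between 0.0042 and 0.0897. Correlations of the deviations of same-numbered samples were 0.13, −0.04, 0.49 and 0.36 for numbers 1 to 4. Of the null samples 3 of 4, and of the wild-type samples 2 of 4, correlated best with their own number. These values do not settle whether the numbers mark pairs. The main fit did not use them, as no source used here ties an embryo to a litter. Whether same-numbered embryos share a litter or batch was not tested. Of 161 differences of members under an alternative, 151 kept their direction and 10 reversed. With 1 row per symbol, genes above the median intensity, trend with robust moderation or the replicate block, each difference itself stayed as in the main fit. No direction could reverse under those, so the count of 151 overstates how stable the directions were. Without both arrays numbered 4, Fgf20 was at −0.0050, Fgf22 at 0.0293 and Fgfr4 at −0.0265, and with Foxi3 null 2 left out too, Fgf20 was at −0.0716 and Fgfr4 at −0.0492. With each array left out, Fgf22 ranged from −0.20 to 0.0619 (without wild type 4), Fgfbp1 from −0.10 to 0.0312 (without wild type 4), with 0.0027 without Foxi3 null 3, and Fgfr4 from −0.0214 (without Foxi3 null 4) to 0.10, with −0.0044 without wild type 1. For these the cause was not tested. Over all the alternatives Fgfr1 ranged from −0.78 (without Foxi3 null 2 and both arrays numbered 4) to −0.23 and stayed lower throughout. With each array left out in turn it ranged from −0.72 to −0.23. Between 0 and 1 of the 36 member pairs passed with each array left out, the 1 being without Foxi3 null 1. Other rows of a symbol gave no alternative, as each member has 1 row. The array columns of the authors' second table match no sample by name, so they gave no alternative either. Low values cannot be told from background, and the median of all genes (5.22) is not a detection line. This limits Fgf9 most. It also limits Fgfr4 (mean 5.33), Fgf18 (mean 5.74) and Fgfr1 in null samples 1, 3 and 4 (5.53 to 5.62).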
